A study of Mus musculus with 10 samples.

Results

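AMP-activated protein kinase (AMPK) is the cell's main energy sensor, and its subunit genes together with its upstream kinase LKB1 make up the 8 genes described here, out of 45707 rows of the expression table. They were taken by name: the catalytic α subunits Prkaa1 and Prkaa2, the scaffold β subunits Prkab1 and Prkab2, the regulatory γ subunits Prkag1, Prkag2 and Prkag3, and Stk11, which encodes LKB1. The samples were jejunum from 5 controls (Vil-Cre) and 5 mice expressing NDI1 (Vil-Cre:NDI1), with 1 RNA sequencing library per mouse. All 10 were male littermates aged 8 to 12 weeks, fasted for 16 to 18 h and given water by oral gavage 1 h before the tissue was taken. Both groups carried the Villin-Cre transgene, which is active in intestinal epithelial cells. Vil-Cre:NDI1 mice also carried a Cre-dependent cassette at the ROSA26 locus for NDI1, the single-subunit NADH dehydrogenase of yeast, which can take over NADH oxidation from mitochondrial complex I. The whole flushed jejunum was used, so RNA of muscle, immune and stromal cells, in which Villin-Cre is not active, is part of each library. In such tissue, fewer cells of a type and less RNA per cell cannot be told apart.

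AMPK works as a heterotrimer of a catalytic α, a scaffold β and a regulatory γ subunit. When AMP or ADP rises relative to ATP, these nucleotides bind the γ subunit, and the α subunit is held in its phosphorylated, active form. LKB1 is the kinase that phosphorylates the activation loop of α under energy stress, in a complex with the pseudokinase STRAD and the scaffold MO25. Active AMPK switches off lipid and protein synthesis and promotes autophagy and mitochondrial fission, mostly by phosphorylating proteins already present, so the transcript levels given below are not a measure of kinase activity. In the intestine AMPK is widely discussed as a possible target of metformin and other inhibitors of complex I, and the comparison of genotypes asks whether the amounts of its own transcripts differ when NDI1 is present, before any drug is given.

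The values are called normalized counts, and in each library they behave as whole reads scaled by 1 constant. NDI1 itself matched the labels: it was at 0, 0, 1.00, 0 and 0 normalized counts in Vil-Cre 1 to 5 and at 982, 1371, 2575, 1394 and 1511 in Vil-Cre:NDI1 1 to 5. Library depth lay between 10145705 and 12371530 reads on genes. The enterocyte list (11 of 11 marker genes above 0 in every mouse, Vil1 and Alpi among them) summed to between 418044 and 807485 normalized counts, so the epithelial markers of the labelled tissue were present in every library. Across 12 lists of cell type markers, 0 of the genes tested passed the test described below, against 0.00699% of all genes. Of the skeletal muscle markers 2 of 6 could be tested. For T cells, B and plasma cells, and enteric neurons and glia it was 5 of 6 each.

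Because the isoform genes are paralogs, shared sequence was examined first. Only a read that lies wholly within a stretch found in both genes cannot be assigned to either. The longest identical stretches between each pair of α and β genes, and the longest for the γ genes, are shown for this reason, 5′ to 3′ on the coding strand, from GRCm38 with GENCODE M21 transcripts. All lie in coding sequence.
Prkaa1 and Prkaa2 (chr15:5143908-5143942, + strand, exon 1; chr4:105109758-105109792, − strand, exon 1): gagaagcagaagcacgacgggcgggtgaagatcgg
Prkab1 and Prkab2 (chr5:116020408-116020430, − strand, exon 3; chr3:97663619-97663641, + strand, exon 4): ggagagcatcagtacaagttctt
Prkag2 and Prkag3 (chr5:24877000-24877016, − strand, exon 9; chr1:74745562-74745578, − strand, exon 7): gaagaacataagattga
Prkag1 and Prkag2 (chr15:98814518-98814532, − strand, exon 8; chr5:24873893-24873907, − strand, exon 11): atcctcaagttcctc

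These runs were 35, 23, 17 and 15 bases long. Of all 31-base windows in the transcripts, 5 were common to Prkaa1 and Prkaa2, which is 0.108% of those of Prkaa1 and 0.0630% of those of Prkaa2. No window of Prkab1 or Prkab2 occurred in any other gene. Overlap with genes on the opposite strand was larger. Prkag1 shared 35.0% of its windows with the antisense gene B130046B21Rik, Prkag2 shared 12.7% with Prkag2os2 and Prkag2os1, and Stk11 shared 4.31% with Cbarp. The strand setting of the counting is not given in the sources used here, so reads of Prkag1 and of its antisense partner may not be separable. B130046B21Rik was listed at 13.1 to 53.8 normalized counts, against 572 to 729 for Prkag1.

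All 8 genes passed the filter on low values, and none passed the test between the genotypes. Each gene was tested with limma on log2(normalized count + 1) over 14301 genes, with Benjamini-Hochberg adjustment. Of the 8 genes 0 had an adjusted p under 0.05, in a comparison in which 0.00699% of all genes tested did, that is NDI1 alone. At an unadjusted p under 0.05, limma gave 0 of 8, against 4.24% of all genes, with 2.11% of all genes lower in Vil-Cre:NDI1 mice. DESeq2 and edgeR on the recovered reads called 0 of the 8 genes too, with 0.183% and 0.00699% of all genes called. The normalized counts of the genotypes overlapped in all 8 genes, and 0.699% of all genes tested had groups that did not overlap. The log2 fold change (Vil-Cre:NDI1 minus Vil-Cre) was below 0 for 6 of the 8 genes, against 48.8% of all genes, with a median of −0.020 over the 8 and 0.0052 over all genes tested. A p that misses the threshold does not show equality, so the 95% interval of each difference is given. For 5 of the 8 genes (Prkaa1, Prkaa2, Prkab1, Prkag1 and Stk11) it lay within a 1.5-fold change in either direction, as it did for 53.5% of all genes. For Prkab2, Prkag2 and Prkag3 it was wider.

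**Figure D1:**
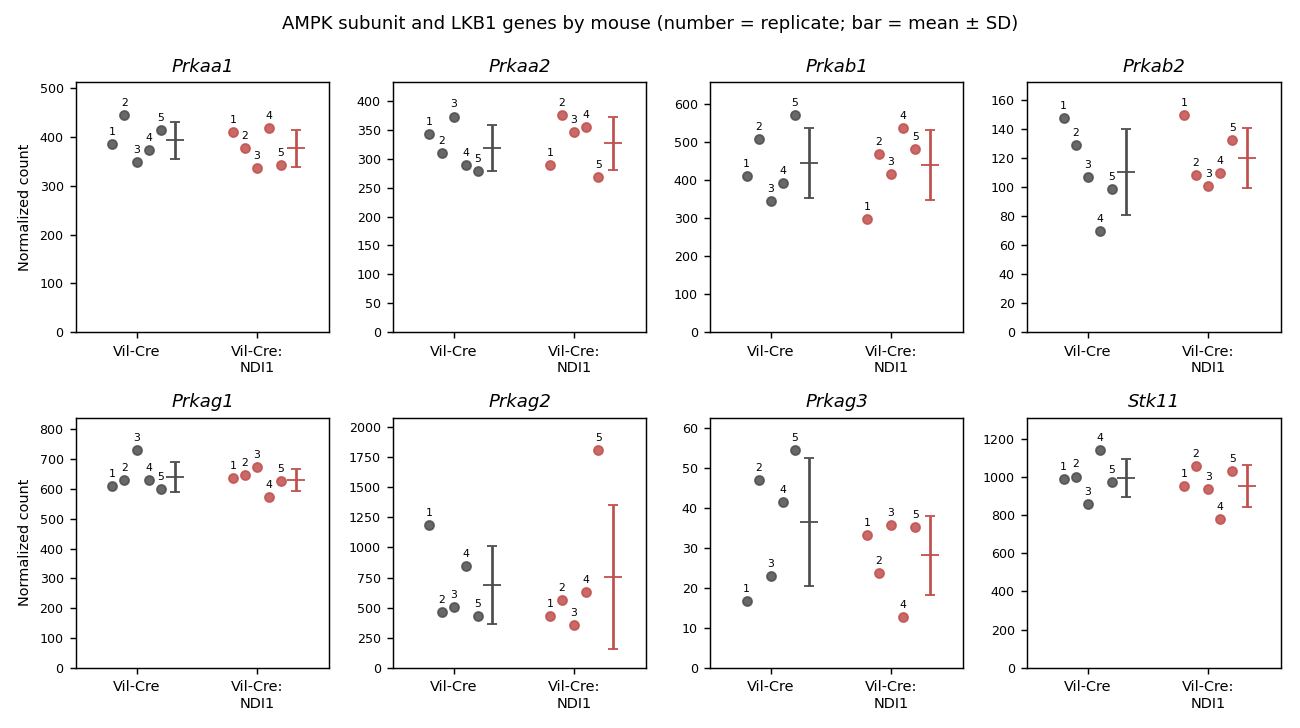
Normalized counts (y axis, from 0) of each AMPK subunit gene and of Stk11 in the 5 Vil-Cre mice (grey) and 5 Vil-Cre:NDI1 mice (red), with the replicate number above each point and the mean ± SD beside each group. The genotypes overlap in all 8 genes, and the highest Prkag2 values are 1808 in Vil-Cre:NDI1 5 and 1186 in Vil-Cre 1.

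Prkaa1 encodes α1, the catalytic subunit found in most tissues, on chromosome 15 (5143861 to 5181899, + strand, identifier ENSMUSG00000050697). Its normalized counts were 384, 444, 348, 372 and 414 in Vil-Cre 1 to 5 and 410, 376, 336, 418 and 342 in Vil-Cre:NDI1 1 to 5. Neither genotype lay above the other, and mice of both were found at the top and the bottom. The log2 fold change was −0.06 (SE 0.10, 95% interval −0.28 to 0.16), with a two-sided exact permutation p of 0.484 (n = 5 mice per genotype). Here and for the genes that follow, the smallest p that 252 assignments of the mice allow is 0.00794. After Benjamini-Hochberg adjustment over all genes tested, the lowest permutation p of the 8 genes was 0.999, and limma's adjusted p ran from 0.998 to 0.999.

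Prkaa2 encodes α2, the catalytic subunit best known from muscle and liver, on chromosome 4 (105029874 to 105109890, − strand, ENSMUSG00000028518). It stood at 343, 310, 373, 288 and 279 normalized counts in Vil-Cre mice and at 288, 375, 347, 355 and 269 in Vil-Cre:NDI1 mice. The highest value of each genotype was nearly the same, as was the lowest. Between genotypes the log2 fold change was 0.03 (SE 0.12, interval −0.24 to 0.30, exact permutation p = 0.802), and its sign turned to −0.03 when libraries were scaled to equal totals.

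Prkab1 encodes β1, the scaffold that joins α to γ and carries a glycogen-binding module (chromosome 5, 116013586 to 116024508, − strand, ENSMUSG00000029513). Vil-Cre mice had 411, 508, 345, 393 and 572 normalized counts and Vil-Cre:NDI1 mice 297, 468, 417, 538 and 482. The lowest mouse was Vil-Cre:NDI1 1 and the highest Vil-Cre 5, with the others of both genotypes between them. With these values the log2 fold change was −0.02 (SE 0.18, interval −0.41 to 0.37, exact permutation p = 0.913).

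Prkab2 encodes β2, the scaffold isoform prominent in skeletal muscle (chromosome 3, 97658193 to 97673812, + strand, ENSMUSG00000038205). Its normalized counts were 148, 129, 107, 69.8 and 99.1 in Vil-Cre mice and 150, 108, 101, 110 and 133 in Vil-Cre:NDI1 mice. Vil-Cre 4 had the lowest value, and the highest mouse of each genotype was level with the other. Its log2 fold change was 0.15 (SE 0.20, interval −0.30 to 0.59, exact permutation p = 0.476). It was −0.0039 without Vil-Cre 4 and −0.06 in DESeq2 without Vil-Cre 3 and Vil-Cre 4, so even its sign rested on that mouse.

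Prkag1 encodes γ1, the common nucleotide-sensing subunit (chromosome 15, 98812797 to 98831521, − strand, ENSMUSG00000067713). It varied least of the 8 genes, at 609, 630, 729, 629 and 601 normalized counts in Vil-Cre mice and 637, 646, 672, 572 and 627 in Vil-Cre:NDI1 mice. Vil-Cre 3 was the highest, and the other 9 mice lay close together. Its log2 fold change was −0.02 (SE 0.08, interval −0.19 to 0.16, exact permutation p = 0.794). This is the narrowest interval of the 8 genes.

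Prkag2 encodes γ2, the isoform in which inherited mutations cause a cardiac glycogen storage disease (chromosome 5, 24862744 to 25100642, − strand, ENSMUSG00000028944). Its normalized counts were 1186, 462, 509, 842 and 429 in Vil-Cre 1 to 5 and 429, 560, 354, 629 and 1808 in Vil-Cre:NDI1 1 to 5. Single mice of both genotypes, Vil-Cre 1 and Vil-Cre:NDI1 5, stood well above the rest, and the remaining values overlapped throughout. For Prkag2 the log2 fold change was −0.01 (SE 0.42, interval −0.93 to 0.91, exact permutation p = 0.992), and it was −0.39 without Vil-Cre:NDI1 5 and 0.22 without Vil-Cre 1. On a linear scale the interval ran from 0.52-fold to 1.88-fold.

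Prkag3 encodes γ3, known as the γ subunit of fast skeletal muscle (chromosome 1, 74738922 to 74749221, − strand, ENSMUSG00000006542). Its normalized counts were low, at 16.8, 47.1, 23.0, 41.5 and 54.4 normalized counts in Vil-Cre mice and 33.3, 23.7, 35.8, 12.7 and 35.2 in Vil-Cre:NDI1 mice, from 13 to 56 reads per library. Values spread widely in both genotypes and overlapped. The log2 fold change was −0.33 (SE 0.38, interval −1.17 to 0.51, exact permutation p = 0.444), and from −0.57 to −0.079 when 1 mouse at a time was left out. Skeletal muscle markers summed to 73.8 to 132 normalized counts in Vil-Cre mice and 87.2 to 181 in Vil-Cre:NDI1 mice over 6 genes, with the fast myosin Myh4 at 0 in all 10 libraries. Among the windows of Prkag3, 1.39% recurred in 485 other genes, and whether its few reads come from a transcribed Prkag3 gene was not tested.

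Stk11 encodes LKB1 (chromosome 10, 80115803 to 80130682, + strand, ENSMUSG00000003068), a tumour suppressor whose germline loss causes Peutz-Jeghers polyps of the gut. Its normalized counts were 991, 1002, 859, 1139 and 974 in Vil-Cre mice and 955, 1059, 938, 781 and 1033 in Vil-Cre:NDI1 mice. The highest mouse was a Vil-Cre and the lowest a Vil-Cre:NDI1 mouse, with the others mixed. The log2 fold change was −0.06 (SE 0.10, interval −0.28 to 0.16, exact permutation p = 0.563).

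**Figure D2:**
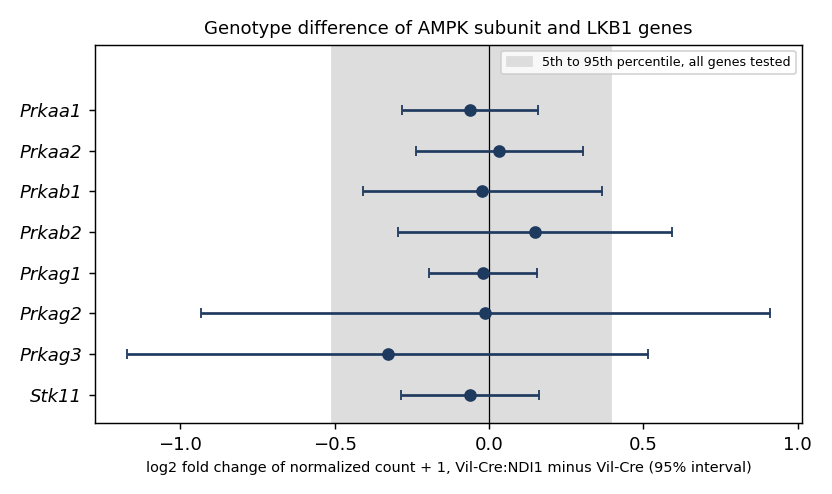
Log2 fold change of normalized count + 1, Vil-Cre:NDI1 minus Vil-Cre (x axis), for the 8 genes (y axis), with the 95% interval from limma. All 8 intervals include 0, those of Prkag2 and Prkag3 are the widest, and the grey band from −0.51 to 0.40 holds the middle 90% of all 14301 genes tested.

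To compare genes with each other, normalized counts were divided by the union length of each gene's exons in kb. On this scale Prkag1 was the highest (292 ± 19.6 normalized counts per kb, SD, n = 10 mice), followed by Stk11 (212 ± 22.0), Prkab1 (145 ± 28.2), Prkag2 (111 ± 70.2), Prkaa1 (82.6 ± 7.84), Prkaa2 (40.5 ± 5.06), Prkab2 (22.6 ± 4.82) and Prkag3 (8.79 ± 3.61). The median over genes tested was 44.5 per kb, so 5 of the 8 genes lay above it and Prkaa2, Prkab2 and Prkag3 below. Prkag1 exceeded Stk11 in 10 of 10 mice without overlap of the ranges, as did Prkaa1 over Prkaa2 and Prkaa2 over Prkab2. Prkab2 exceeded Prkag3 in 10 of 10 mice too, although the ranges over mice overlapped. The middle of the order was not settled: Stk11 exceeded Prkab1 in 9 of 10 mice, Prkab1 exceeded Prkag2 in 7 and Prkag2 exceeded Prkaa1 in 6. The top of the order depends on the length used, as computed after the first order had been seen. Per kb of coding sequence Stk11 (744 ± 76.9) exceeded Prkag1 (642 ± 43.0) in 9 of 10 mice, with overlapping ranges, and the other 6 genes kept their places. By the longest transcript Prkag1 (385 ± 25.8) was again above Stk11 (266 ± 27.5) in 10 of 10 mice. Prkag2 (216 ± 137) and Prkab1 (212 ± 41.3) changed places by their means only, as Prkag2 was the higher in 3 of 10 mice.

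Summed over isoform genes, the γ subunit gave 412 ± 67.8 normalized counts per kb, β 167 ± 27.6 and α 123 ± 8.47 (SD, n = 10). The catalytic subunit thus had the lowest sum on this scale and the smallest SD, as it did by coding length (424 ± 29.4) and by the longest transcript. Its sum was 124 ± 6.66 in Vil-Cre and 122 ± 10.6 in Vil-Cre:NDI1 mice (n = 5 each).

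Prkaa2 supplied 32.9% ± 3.77 of the α transcripts per kb (SD, n = 10), with 32.2% ± 4.23 in Vil-Cre and 33.6% ± 3.57 in Vil-Cre:NDI1 mice. Prkaa1 was higher than Prkaa2 in 10 of 10 mice, by 2.05-fold on average (two-sided exact sign-flip permutation test, p = 0.00195, the smallest that 10 mice allow). This ratio depends on the length used. Per kb of coding sequence, Prkaa2 made up 45.9% and Prkaa1 was higher in 7 of 10 mice, by 1.18-fold (exact permutation p = 0.0195). Prkaa2 has a much longer transcript than its coding sequence, and where the reads lie along it is not known from a table of genes.

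Prkab2 supplied 13.9% ± 4.20 of β transcripts per kb, and Prkab1 was 6.41-fold higher and ahead in 10 of 10 mice (exact permutation p = 0.00195). The share was 13.2% ± 3.68 in Vil-Cre and 14.7% ± 4.97 in Vil-Cre:NDI1 mice. By coding length it was 21.0%, and by the longest transcript 10.1%, with Prkab1 ahead in 10 of 10 mice by each. Vil-Cre:NDI1 1 stood apart with 23.3%, where Prkab1 was at its lowest and Prkab2 at its highest.

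Prkag2 supplied 25.6% ± 10.8 of γ transcripts per kb, from 14.6% to 48.4% between mice, the widest range of the subunits. Prkag1 was higher in 10 of 10 mice, 3.00-fold on average (exact permutation p = 0.00195), and in 8 of 10 mice when coding length was used, where the share of Prkag2 was 36.5%. Adjusted over the 3 subunits, the p of each isoform difference remained 0.00195. By the longest transcript the share of Prkag2 was 33.2%, with Prkag1 higher in 9 of 10 mice. In Vil-Cre:NDI1 5, Prkag2 nearly equalled Prkag1 by union exon length (48.4%). It exceeded Prkag1 there by coding length (61.8%) and by the longest transcript (58.1%). Between genotypes the share was 25.1% ± 9.27 against 26.0% ± 13.3. The exact permutation p for the genotype difference in share was 0.579 for α, 0.651 for β and 0.913 for γ, each 0.913 after Benjamini-Hochberg adjustment over the 3 shares, so no shift of isoform was detectable with 5 mice per genotype.

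**Figure D3:**
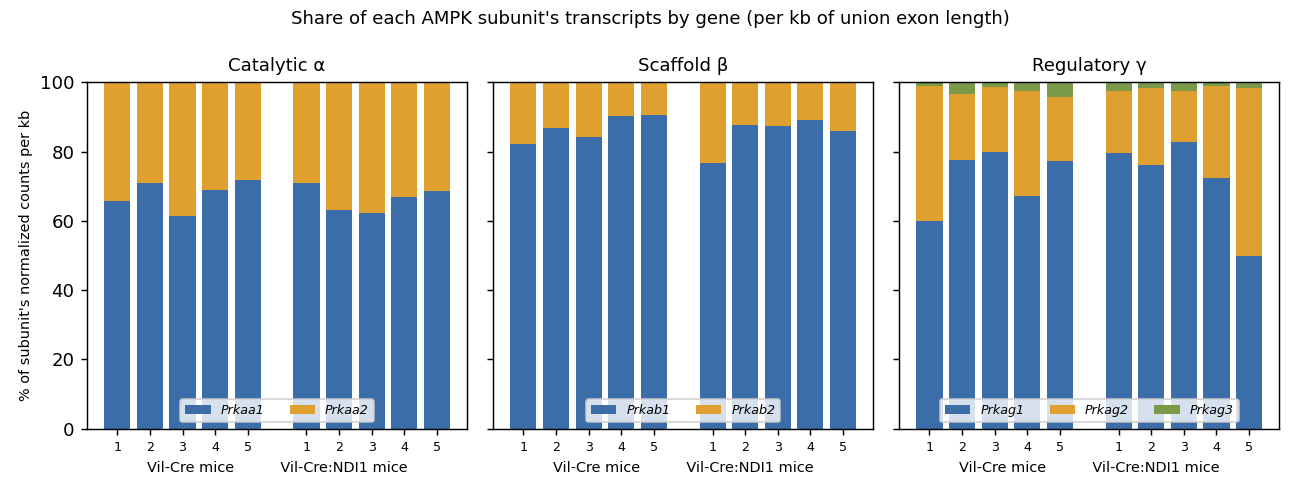
Percent of each subunit's normalized counts per kb of union exon length (y axis) that came from each isoform gene, as stacked bars for each of the 5 Vil-Cre and 5 Vil-Cre:NDI1 mice (x axis). Prkaa1, Prkab1 and Prkag1 are the larger part in every mouse, and the part from Prkag2 runs from 14.6% to 48.4%.

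The 8 genes differed in their spread between mice of the same genotype. The SD of log2(normalized count + 1) within genotype was 0.10 for Prkag1, 0.14 for Prkaa1, 0.16 for Stk11 and 0.19 for Prkaa2, all under the median of 0.29 over genes tested. Prkab1 (0.31) and Prkab2 (0.33) lay near that median, and Prkag3 (0.65) and Prkag2 (0.79) above it. Against genes of like level only (mean log2 within 0.5), the SD of Prkab1 was higher than that of 80.1%. For Prkag3 this was 69.9%, for Prkab2 55.7%, for Stk11 42.8%, for Prkaa2 41.3%, for Prkaa1 23.3% and for Prkag1 9.20%. Counting error alone would give about 0.25 for Prkag3 at its few reads and 0.05 for Prkag2. Prkag2 therefore varied between mice far beyond counting error, by 5.10-fold from the lowest to the highest. Its SD was higher than that of 90.8% of all genes tested, and higher than that of 98.6% of the 1874 genes of like level (mean log2 within 0.5). Without Vil-Cre:NDI1 5, an alternative chosen after the values had been seen, the SD was 0.54, higher than that of 95.5% of the genes of like level. Without Vil-Cre 1 as well, it was 0.41 and higher than that of 89.2%.

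**Figure D4:**
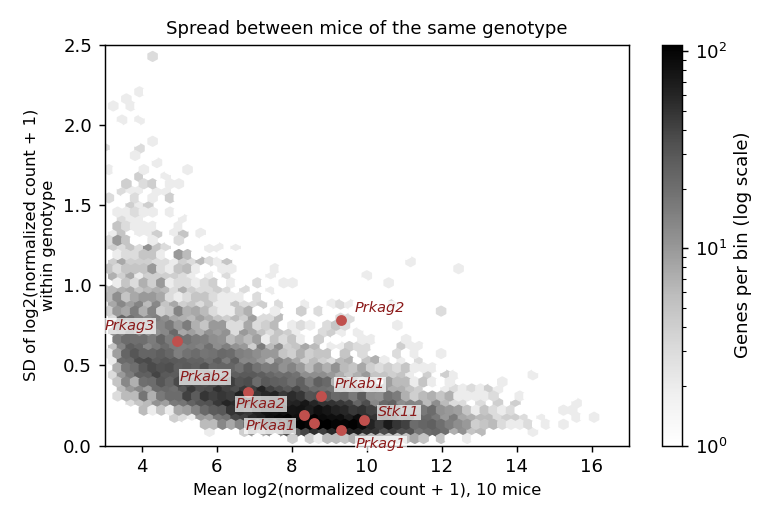
SD of log2(normalized count + 1) between mice of the same genotype (y axis) against the mean over 10 mice (x axis) for the 14301 genes tested (grey bins, darker for more genes, log colour scale), with the 8 genes in red. Prkag2 lies above nearly all genes of its level and Prkag1 near the lower edge.

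Cell type markers were set beside Prkag2, because the mouse with its highest value also lay at the edge of several marker lists. In Vil-Cre:NDI1 5 the 11 enterocyte genes summed to 807485 normalized counts, against 418044 to 690130 in the other 9 mice. Not all of the list was high in it: Lct (23310), Apoa4 (109025), Apob (85118) and Fabp1 (10227) lay inside the range of the other mice. The remaining enterocyte genes had their highest value of all 10 mice there. In this mouse the sums were the lowest of all 10 for the lists of crypt stem and proliferation (2275), goblet (66803), enteroendocrine (1309) and T cell genes (444). For skeletal muscle genes (181) the sum was the highest of all 10, with 141 of it from Ckm. This library also had the fewest genes with a read (19243) and the highest total of normalized counts (12106474) of all 10. In Vil-Cre 1, the mouse with the second highest Prkag2, the enterocyte sum was 588008 and the crypt sum 3614, both inside the range of the other mice. The part of cell composition in the spread of Prkag2 was not tested.

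The gene most like each of the 8 across the 10 mice was found by Pearson's r of log2(normalized count + 1) among 14281 other genes. A search over so many candidates favours high values, and all points of a mouse share its library and depth, so these are descriptions only. Prkaa1 ran most closely with Galnt5, a transferase that starts mucin-type glycosylation (r = 0.93, rho = 0.95), and Prkaa2 with Lrrc16b (r = 0.93, rho = 0.94), which was at 4.70 to 21.0 normalized counts. Prkab1 ran with the galactosyltransferase gene B4galt1 (r = 0.96, rho = 0.99), and 171 genes reached an r of 0.8 with it, the most of the 8. Prkab2 ran with Cttn, which encodes the actin-binding cortactin (r = 0.93, rho = 0.93). Prkag1 was nearest to Ndufa1, a complex I subunit gene (r = 0.93, rho = 0.92), and Prkag2 to Ctbs, which encodes a lysosomal chitobiase (r = 0.91, rho = 0.84). Prkag3 was nearest to the splicing factor gene Prpf38a (r = 0.93, rho = 0.88) and Stk11 to Parp16 (r = 0.89, rho = 0.64). None of the 8 was the nearest gene of another, since they were left out of the search. Among their own pairs r ran from −0.69 (Prkaa2 with Prkag3) to 0.57 (Prkag3 with Stk11).

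Genes that act above and below AMPK, and the AMPK-related kinases beside it, were compared between genotypes in the same fit. Of 66 genes in 8 lists, 64 could be tested, and 0 passed the threshold in either direction, against 0.00699% of all genes. By unadjusted p, 1 of the 64 was under 0.05, against 4.24% of all genes. Log2 fold changes were above 0 for 29 and below 0 for 35, with a median of −0.021. Over all genes tested 48.8% were below 0. In 45 of the 64 genes the 95% interval lay within a 1.5-fold change, as it did for 53.5% of all genes.

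Upstream, 0 of the 4 LKB1 partner genes passed the test. Cab39, which encodes the scaffold MO25α, stood at 2837 ± 229 normalized counts in Vil-Cre and 3000 ± 253 in Vil-Cre:NDI1 mice (log2 fold change 0.08, SE 0.08), and the pseudokinase gene Strada at 58.1 ± 7.46 and 54.5 ± 10.4 (−0.10, SE 0.18). The median of the 4 partners was 0.04, and all 4 intervals lay within 1.5-fold. Among 6 other upstream genes the median was −0.08. Camkk1, a calcium-dependent AMPK kinase gene, was at 39.2 ± 10.0 and 32.7 ± 9.39 (−0.27, SE 0.25), and the phosphatase gene Ppm1a at 1798 ± 184 and 1890 ± 51.3 (0.08, SE 0.08). Of all genes tested 48.8% had a log2 fold change below 0. Of the 11 genes for activation of AMPK on the lysosome, 10 were above 0, with a median of 0.04. The widest was that of the aldolase gene Aldoc, at 43.5 to 90.2 in Vil-Cre and 62.0 to 111 in Vil-Cre:NDI1 mice (0.39, SE 0.23, adjusted p = 0.998 in limma), while Lamtor2 of the Ragulator complex was at 508 ± 95.1 and 547 ± 66.5 (0.12, SE 0.14).

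The AMPK-related kinases, further targets of LKB1 with a catalytic domain like that of α, gave no call either. Of 11 tested, 10 had a log2 fold change below 0, against 48.8% of all genes, with a median of −0.16. The threshold was passed by 0 of the 11, against 0.00699% of all genes. Mark1, a microtubule affinity-regulating kinase gene, was at 28.0, 35.0, 25.0, 17.2 and 35.0 normalized counts in Vil-Cre 1 to 5 and at 14.7, 21.0, 15.5, 9.79 and 9.39 in Vil-Cre:NDI1 1 to 5. All but 1 of the Vil-Cre mice were above all those with NDI1. For Mark1 the log2 fold change was −0.96 (SE 0.30), the exact permutation p 0.0159 and limma's adjusted p 0.998. Over the other settings the adjusted p ran from 0.0574 to 0.9999, and was 0.285 in DESeq2 on all 10 libraries. The 0.0574 came from DESeq2 without Vil-Cre 3 and 4, a setting added for the genes around AMPK after seeing the data. None of the settings in which Mark1 was tested called it. Nuak1 was at 23.5 ± 3.95 and 16.3 ± 2.49 (log2 fold change −0.50, SE 0.23). Sik3, named here after its values were seen, had the widest spread of the 64 genes for its level. It was at 1010 ± 852 normalized counts in Vil-Cre mice and 591 ± 225 in Vil-Cre:NDI1 mice, from 373 to 2019. By mouse it stood at 1865, 373, 2019, 419 and 376 normalized counts in Vil-Cre 1 to 5 and at 423, 458, 920, 420 and 734 in Vil-Cre:NDI1 1 to 5. The high mice were Vil-Cre 1 and Vil-Cre 3, and the log2 fold change was −0.40 (SE 0.52).

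Downstream, 0 genes in the 4 lists of substrates passed the threshold. Over 12 tested substrates of metabolism the median log2 fold change was 0.02. Those with the smallest p were the glycogen synthase gene Gys1, at 147 ± 18.9 and 115 ± 38.9 normalized counts (−0.40, SE 0.20), and the Rab GTPase regulator gene Tbc1d1, at 699 ± 39.1 and 746 ± 57.8 (0.09, SE 0.08). Of the 6 genes of mTORC1 and autophagy, all with intervals within 1.5-fold, Ulk1, the autophagy-starting kinase gene, was at 406 ± 55.6 and 344 ± 36.9 (−0.23, SE 0.12) and Rptor at 420 ± 58.0 and 395 ± 27.9 (−0.08, SE 0.11). The fission genes were Mff (472 ± 66.7 and 517 ± 36.1, log2 fold change 0.14, SE 0.11) and Mtfr1l (603 ± 110 and 613 ± 88.3, 0.03, SE 0.14). Among 12 substrates that control gene expression the median was −0.08. The class IIa histone deacetylase genes Hdac5 (531 ± 88.0 and 411 ± 137, −0.43, SE 0.23) and Hdac4 (329 ± 102 and 260 ± 42.1, −0.30, SE 0.19) had the smallest p there.

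**Figure D5:**
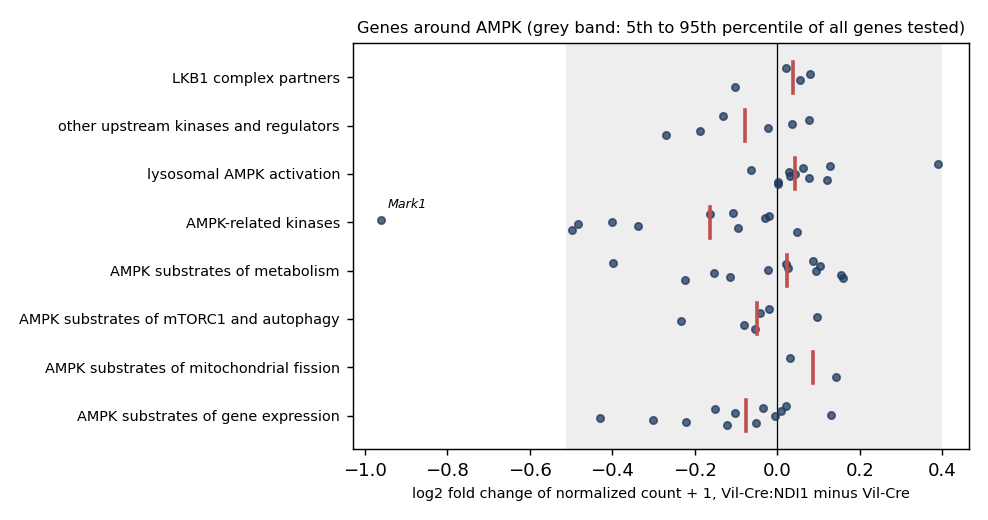
Log2 fold change of normalized count + 1, Vil-Cre:NDI1 minus Vil-Cre (x axis), for the 64 tested genes around AMPK in 8 lists (y axis), each point a gene and each red line a list's median. Medians run from −0.16 to 0.09, and Mark1 at −0.96 is the only gene outside the grey band, which holds the middle 90% of all genes tested.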

How the data were processed

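Per the study's methods, the authors ran nf-core/rnaseq on single-end reads (trimGalore!, then STAR against GRCm38 plus the NDI1 sequence, then Salmon) and analysed the result with DESeq2. The annotation release is not given in the sources used here. The deposited values are normalized counts, treated as a signal rather than as counts. How they were scaled is not stated, and 1 size factor per library was inferred from the values. In all 10 libraries 100% of non-zero values were whole multiples (tolerance 0.001 of a read) of the smallest, and reads were recovered from this. For Vil-Cre 3 and Vil-Cre 4 that value lies near 1 (1.002 and 1.011), and the recovered reads there rest on the whole-multiple check alone. DESeq2 was also run without these libraries.

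Genotypes, taken from the sample labels, were compared with limma 3.58.1 (R 4.3.3) on log2(value + 1) with a variance trend. Genes needed a value of 10 or more in 5 or more mice, and Benjamini-Hochberg adjusted p-values were read at a threshold of 0.05. Recovered reads were tested with DESeq2 1.42.0 and edgeR 4.0.16. The code was tested on simulated data. Exact permutation tests were two-sided, over log2 values (genotypes) or log2 ratios (isoforms). Lengths came from GENCODE M21 (GRCm38). Alternatives were other pseudocounts, filters, scalings, tests and lengths, a replicate block and leaving out mice. Named genes are the 8, the 2 of smallest p in each list, the nearest gene to each of the 8 and NDI1. The 8 genes and all lists were chosen with earlier results of these data known. P-values judge a difference against the spread between mice, and counting error covers reads only, which are not independent molecules.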

Additional observations from a re-analysis of the deposited data

Results flagged for a closer look

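Over 22 groups of 5 mice (the 8 genes and 3 isoform shares in each genotype), the gap between the most extreme mouse and the next was compared with the whole range of the group. In 3 groups it exceeded 0.71 of the range, where chance gives about 1.1 if values are normally distributed, which was not tested. The isoform shares are computed from the same genes, so the 22 groups are not independent.

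Prkag1 stood at 729 normalized counts in Vil-Cre 3, where the other 4 Vil-Cre mice had 601 to 630, a gap of 0.773 of the range. Prkag2 stood at 1808 normalized counts in Vil-Cre:NDI1 5, where the other 4 mice of that genotype had 354 to 629, a gap of 0.811. Prkab2 supplied 23.3% of the β transcripts per kb in Vil-Cre:NDI1 1, against 10.9% to 14.2% in the other 4, a gap of 0.736.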

How the results depend on the processing

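None of the 8 genes and none of the genes around AMPK was called under the alternatives in which each could be tested (for the latter, pseudocounts, no filter, equal totals and DESeq2 without Vil-Cre 3 and 4 were added after seeing the data), and the lowest adjusted p among the 8 was 0.717 (Prkaa1), so every turn of sign below is in a value that did not pass the test. With equal totals Prkaa2 was at −0.029 and Mtfr1l at −0.031, where the median of all genes was −0.06. DESeq2 gave 0.14 and edgeR 0.12 for Prkag2, and DESeq2 without Vil-Cre 3 and 4 gave 0.13 for Prkag2, −0.061 for Prkab2, 0.041 for Prkag1 and 0.035 for Rptor. Coding length moved the shares to 45.9% (Prkaa2), 21.0% (Prkab2) and 36.5% (Prkag2). Leaving out 1 mouse at a time gave log2 fold changes from −0.019 to 0.10 for Prkaa2, −0.11 to 0.11 for Prkab1, −0.0039 to 0.26 for Prkab2, −0.042 to 0.029 for Prkag1, −0.39 to 0.22 for Prkag2, −0.57 to −0.079 for Prkag3, −0.11 to 0.0082 for Stk11, −0.17 to 0.0075 for Strada and −0.059 to 0.12 for Mtfr1l. Without a turn of sign, Lamtor2 ran from 0.00093 to 0.20, Hdac5 from −0.54 to −0.21 and Hdac4 from −0.41 to −0.14. The genotype difference in share ran from −0.67 to 2.64 percentage points for β and from −4.75 to 4.35 for γ. Prkag3 gave no value with a minimum of 50. Over all genes, calls numbered 1 with limma, 31 with DESeq2, 276 with DESeq2 without Vil-Cre 3 and 4, 2 without Vil-Cre:NDI1 1, 3 without Vil-Cre:NDI1 5 and 2 with a minimum of 50. The cause was not tested. Same-numbered mice showed little shared deviation (r from −0.12 to 0.14), and the labels do not say whether a shared number pairs mice. With 1 mouse of each genotype per number, a replicate block cannot change the log2 fold changes. The fit with that block called 1 gene.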
